A study of Mus musculus with 98 samples.

Results

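Il22, Il17a, Il17f, Csf2 and Il2 are 5 cytokine genes linked to group 3 innate lymphoid cells (ILC3), and they were followed by symbol through every cell of a mouse gut data set. They are 5 of the 23420 gene symbols measured. The cells were innate lymphoid cells (ILCs), which are lymphocytes that carry no rearranged antigen receptor, and each was profiled singly. The 67 R9-ILCs, made from pluripotent stem cells (strain C57BL/6), were GFP+ CD45.2+ Lin- CD127+ cells of the intestine of Rag2-/-Il2rg-/- mice taken 3 weeks after transplantation. The WT-ILCs were CD45.2+ Lin- CD127+ cells of the intestine of wild-type C57BL/6 mice, 8 weeks old. The age and number of the recipients are not given in the sources used here, and neither is the number of wild-type mice or of stem cell clones. A Rag2-/-Il2rg-/- host is used because it lacks its own T cells, B cells and ILCs, so the R9 cells grew in a gut without the host's lymphocytes.

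ILC3 lie in the gut wall next to the epithelium. When myeloid cells release IL-23 and IL-1, ILC3 answer with IL-22, which acts on epithelial cells to raise antimicrobial and mucus genes. IL-17A and IL-17F, also products of ILC3, call in neutrophils, and Csf2 encodes GM-CSF, which acts on myeloid cells. Il2 encodes IL-2, a growth factor that feeds regulatory T cells and that ILC3 can make in the small intestine. Cytokine transcripts of this kind are made in bursts and are low or silent in resting cells.

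The genes lie at separate loci, except for the Il17a and Il17f pair. In GRCm38, the build also called mm10, Il22 spans chr10:118204942-118210047 on the plus strand with 5 exons. Il17a (chr1:20730905-20734496, plus strand, 3 exons) and Il17f (chr1:20777146-20790617, minus strand, 3 exons) are neighbours. Csf2 lies at chr11:54247271-54249667 on the minus strand with 4 exons, and Il2 at chr3:37120523-37125959 on the minus strand with 4 exons.

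Il22 has a near copy, Iltifb, on the same chromosome (chr10:118289629-118295038, minus strand, 5 exons), and reads that both genes share could be divided between them. The coding sequences of Il22 and Iltifb are 98.3% identical, with 9 differences in 537 coding bases. Windows of 50 bases of the Il22 transcript were found in Iltifb for 41% of positions, and windows of 100 bases for 20.4%. A stretch that carries 6 of the 9 differences is shown for both genes, since these bases are what separates their reads. It holds coding bases 79 to 258 and is spliced across exons. In capitals are the bases that differ between the genes, in GRCm38, each on its own coding strand (Il22 within chr10:118205069-118205740, plus; Iltifb within chr10:118294240-118294911, minus).
Il22: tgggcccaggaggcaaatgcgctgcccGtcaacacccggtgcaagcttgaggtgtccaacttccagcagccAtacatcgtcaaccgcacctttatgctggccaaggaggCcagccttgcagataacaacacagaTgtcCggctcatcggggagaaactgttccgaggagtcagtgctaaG
Iltifb: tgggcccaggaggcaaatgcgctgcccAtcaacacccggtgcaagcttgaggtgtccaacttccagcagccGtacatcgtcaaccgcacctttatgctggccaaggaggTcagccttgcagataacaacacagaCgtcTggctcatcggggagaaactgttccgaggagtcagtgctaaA
Counted from 1 at the first coding base, with the base of Il22 first, the differences in this stretch are G106A, A150G, C188T, T213C, C217T and G258A, and the others are T474C, G486A and T492C. Il17a and Il17f, although related, shared no window of 50 bases.

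Values are TPM (a transcript abundance scaled so that every cell has the same sum), and a gene counted as seen in a cell when it reached 1 TPM. TPM keeps no read depth, so the depth behind each value is unknown, and an exact 0 can be a failed estimate. Gapdh, which every cell uses, passed that limit in 8 of 32 cells of the R9 title series with no number at its end, in 34 of 35 cells of the R9 series whose titles end in 1 and in 12 of 22 WT cells. Among 7 such genes, Actb, Eef1a1, B2m and Ppia were seen in every cell of each set. In the same order, Rplp0 was seen in 31 of 32, 35 of 35 and 21 of 22 cells. Tpt1 was seen in 23 of 32, 34 of 35 and 18 of 22. Among 31 WT columns, 8 cells were held by more than 1 column (Pearson r of log2(TPM + 1) above 0.8, between 0.844 and 0.995), and averaging these left 22 cells. That joined columns are 1 cell is an assumption, since some shared only 24% of their seen genes. The joined WT cell called 16/32 below merges a column numbered 16 with the columns numbered 32 (r of 0.967 and 0.964), although their titles carry different numbers. The R9 titles fall in 2 series of 32 and 35 cells, whose meaning the labels do not give. A median of 2082.5 genes was seen per cell in the R9 series without an ending, 2429 in the series with the ending 1 and 2092.5 in WT.

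The 2 R9 series differed in how low their listed values reach, which bears on every weak cytokine signal. Of all values above 0, 10.9% lay under 10 TPM in the series without an ending, 51.3% in ending 1 and 45.2% in WT. The lowest listed values (the median over cells of the 5th percentile) were 8.39 TPM without an ending, 0.271 TPM in ending 1 and 0.454 TPM in WT. In 26 of 32 cells without an ending, 1 of 35 in ending 1 and 5 of 22 in WT, the leading gene took at least 10% of the TPM sum. A count at 1 TPM therefore uses values in ending 1 that were rarely listed in the other series, and counts at 10 TPM are given beside it.

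**Figure D1:**
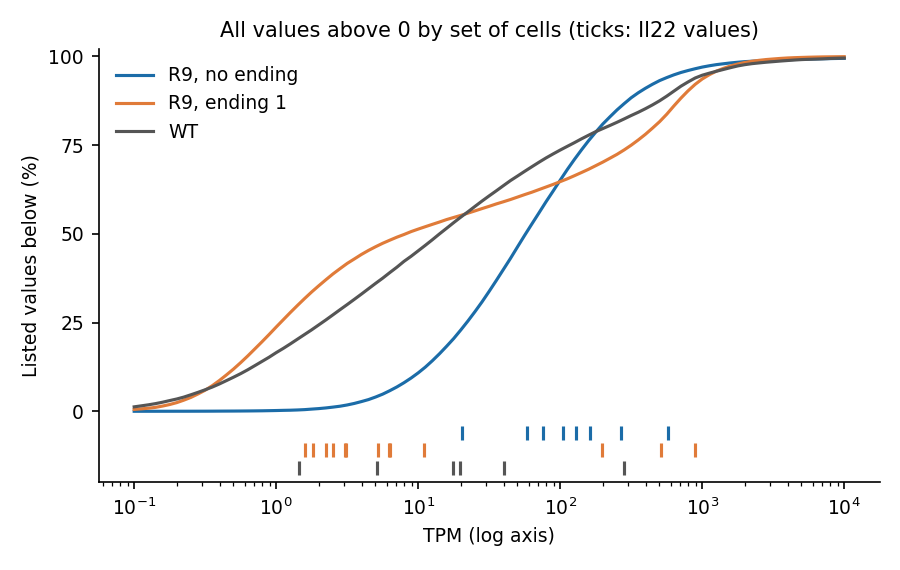
Share of all listed values (those above 0) that lie below a given TPM, on a log axis, for the R9 series without an ending, the R9 series with the ending 1 and WT, with ticks at the Il22 values of single cells. At 10 TPM the curves stand at 10.9%, 51.3% and 45.2%.

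Il22 was the member seen in the most cells. Of the 67 R9 cells, 21 held it at 1 TPM or more (31.3%, exact Clopper-Pearson 95% interval 20.6 to 43.8), and of the 22 WT cells, 6 did (27.3%, 10.7 to 50.2). These intervals cover counting error only and overlap widely. With all 31 WT columns taken as cells, Il22 was seen in 9 of 31. The labels tie no cell to an animal, so each group stood as 1 sample and nothing was tested.

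Where it was seen, Il22 spanned a wide range of levels. The 8 cells of the R9 series without an ending held 20.5, 58.5, 75.1, 104.9, 129.2, 162.2, 267.3 and 576.3 TPM (median 117.0, SD 178.9). Of the 13 cells of ending 1, 9 held 1.59 to 6.30 TPM and the others 11, 197.1, 511.7 and 882.3 TPM (median 5.24, SD 269.9). The 6 WT cells held 1.44, 5.16, 17.6, 19.6, 40.5 and 282.9 TPM (median 18.6, SD 109.5). The ranges of the 3 sets overlap, and most of the ending 1 cells lie below every cell of the series without an ending. That gap falls in the range where the series without an ending lists few values of any gene.

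At 10 TPM the order of the 2 R9 series turned. Il22 was then seen in 8 of 32 cells without an ending (25%, 11.5 to 43.4), 4 of 35 cells of ending 1 (11.4%, 3.20 to 26.7) and 4 of 22 WT cells (18.2%, 5.19 to 40.3). At 1 TPM the same sets gave 8 of 32, 13 of 35 (37.1%, 21.5 to 55.1) and 6 of 22. The difference of ending 1 minus no ending was 12.1 percentage points at 1 TPM and -13.6 at 10 TPM, and the intervals overlapped at both limits. For Csf2 the intervals of the 2 R9 series also overlapped at both limits. Il17a and Il2 were at 0 in both series and Il17f was seen in at most 1 cell of each. The intervals of these 3 members could therefore not lie apart. Over all genes seen in either series the intervals lay apart in 6.85% (more often in ending 1) and 1.45% (less often) at 1 TPM, and in 1.72% and 3.11% at 10 TPM.

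**Figure D2:**
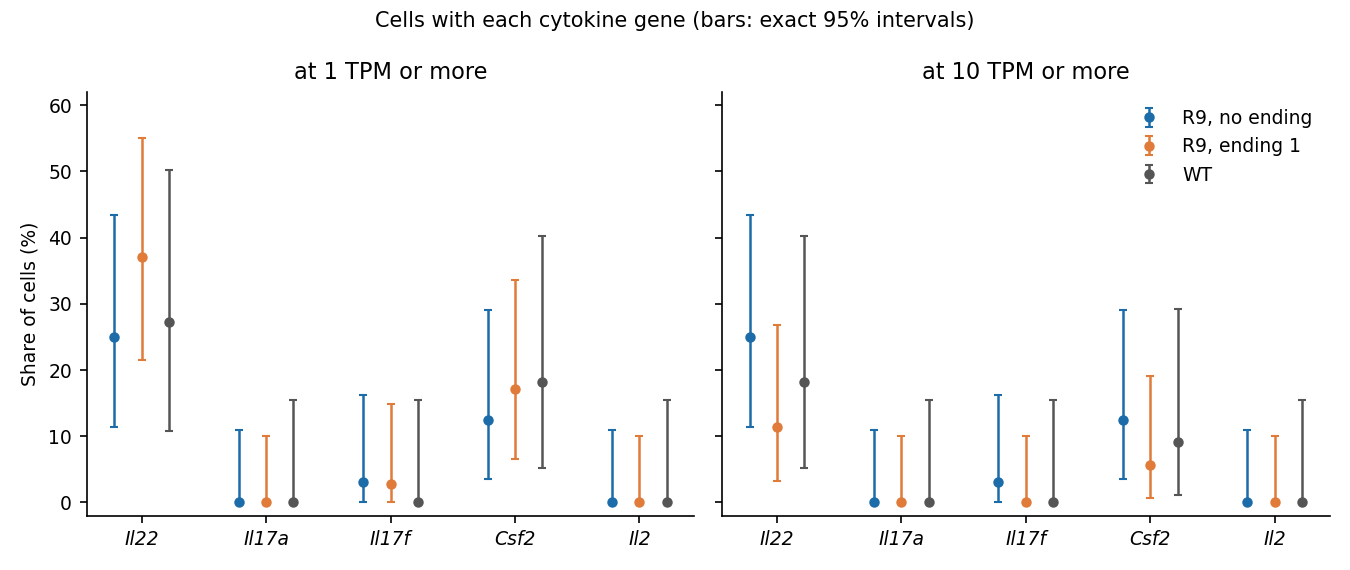
Share of cells in which each member was seen, with exact 95% intervals, by set of cells, at 1 TPM and at 10 TPM. For Il22 the intervals of the sets overlap at both limits, and Il17a and Il2 are at 0 in each set.

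Il22 was also placed among the genes of its own cell that reached 1 TPM, a limit that the low values of ending 1 pass more often than those of the other R9 series. The share of a cell's seen genes that lay below Il22 had a median of 71.8% in the R9 series without an ending (25.5 to 93.7), 22.9% in ending 1 (8.99 to 82.9) and 52.8% in WT (8.28 to 83.9). Il22 stood above the middle of its cell's genes in 5 of 8, 3 of 13 and 4 of 6 cells. The TPM value and this place did not always go together: cell 33 without an ending held 20.5 TPM at 76.6%, and cell 1 held 162.2 TPM at 47.3%.

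Cells of each set were also split at the median number of genes seen. In the R9 series without an ending Il22 was seen in 3 of 16 cells with fewer genes and in 5 of 16 with more. In ending 1 the counts were 9 of 17 and 4 of 18, and in WT 3 of 11 and 3 of 11. No set had Il22 on 1 side of the split alone. WT columns also carry endings: Il22 and Csf2 were seen in 0 of 9 columns named with the ending 1, and Il22 in 7 and Csf2 in 5 of 20 cells of ending 2. A column with no ending in its name, which held Il22 at 263.3 TPM, is in neither count. The only WT title left for this column ends in 1. The count of 0 of 9 therefore leaves out a column with Il22 that likely belongs to ending 1. Of the ending 2 cells, 1 cell with Il22 falls under 1 TPM once averaged with its other column.

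Averaged over all cells, Il22 stood at 45.2 ± 146.1 TPM (SD over cells) in R9 and 16.7 ± 60.3 TPM in WT. The log2 ratio of R9 over WT, with 1 TPM added to each mean, was 1.38, where all genes used had a median of 0.62. The 2 tables were scaled separately, so this ratio compares levels across tables. Of 10691 genes whose mean was 1 TPM or higher in R9 or WT, 43.0% had a log2 ratio of 1 or more and 21.3% of -1 or less, so a ratio of this size in R9 was common. Of the 2 members used here, Il22 and Csf2, Il22 passed that fold.

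A few cells carried these means. The highest cell held 29.1% of the Il22 sum in R9 and 76.9% in WT, where it is the joined cell 16/32. Without the highest cell of each group the mean fell to 32.5 TPM in R9 and 4.05 TPM in WT, and the log2 ratio was 2.73. Leaving out only the WT cell 16/32 gave 3.19. With the mean of log2(TPM + 1) in place of the log of the mean, the difference was 0.33, beside an all-gene median of 0.12. With all 31 WT columns the ratio was 0.57, below the all-gene median of 0.63, and with each cell scaled by common genes it was 0.16, near the all-gene median of 0.11. The ratio stayed above 0 in the alternatives that gave a value, but did not stand above the median of all genes in each.

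Between the R9 series the Il22 means were alike, at 43.6 ± 114.5 TPM without an ending and 46.7 ± 171.8 TPM in ending 1, a log2 ratio of 0.10. The median over all genes was 1.61, with 64.9% of 10321 genes higher by a log2 ratio of 1 or more in ending 1 and 16.1% lower. The Il22 ratio turned to -0.24 without the highest cell of each series and to -0.32 with the mean of logs. Against WT, the series gave 1.33 and 1.43, where the medians over all genes were -0.67 and 0.94.

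**Figure D3:**
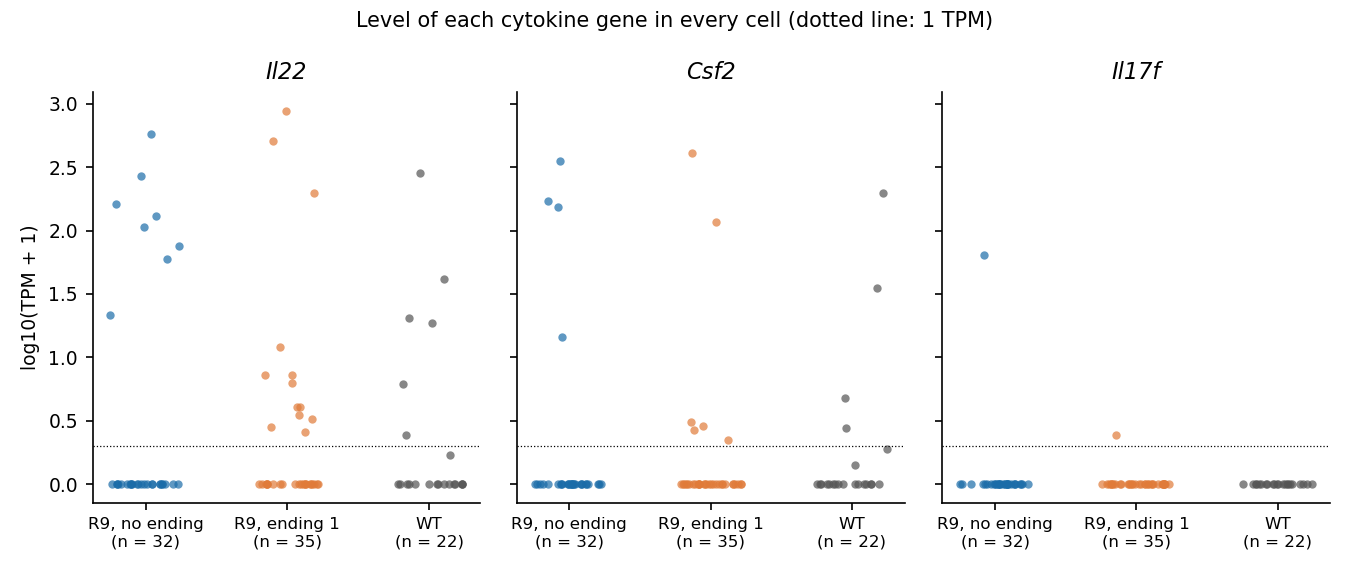
Level of Il22, Csf2 and Il17f in every cell as log10(TPM + 1), by R9 series and WT, with each point a cell, spread sideways for view, and a dotted line at 1 TPM. Of the ending 1 cells with Il22, 9 lie from 1.59 to 6.30 TPM and the others at 11, 197.1, 511.7 and 882.3 TPM.

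Csf2, the GM-CSF gene, was the only other member seen in more than 2 cells of a set. R9 had 10 such cells of 67 (14.9%, 7.40 to 25.7) and WT 4 of 22 (18.2%, 5.19 to 40.3). The 4 cells without an ending held 13.5, 152.2, 169.9 and 349.9 TPM. The 6 cells of ending 1 held 1.21, 1.67, 1.90, 2.07, 115.7 and 407.0 TPM. The 4 WT cells held 1.76, 3.78, 34.5 and 196.7 TPM. As for Il22, low values of Csf2 appear in ending 1 and WT but not in the series without an ending.

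At 10 TPM Csf2 was seen in 4 of 32 cells without an ending, 2 of 35 cells of ending 1 (5.71%, 0.700 to 19.2) and 2 of 22 WT cells (9.09%). The Csf2 means were 18.1 TPM in R9 and 10.8 TPM in WT, a log2 ratio of 0.69, near the all-gene median of 0.62. It moved to -0.095 with the mean of logs and to -0.16 with all 31 WT columns, so the R9 and WT order of Csf2 depends on how the cells are averaged. One WT cell, 16/32, held 82.6% of the WT sum, and without it the ratio was 2.69. Without the highest cell of each group the Csf2 ratio was 2.16.

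Il17f, encoding a neutrophil-recruiting cytokine, was seen in 2 of 67 R9 cells (2.99%, 0.364 to 10.4). One, cell 20 without an ending, held 63.6 TPM, and the other, cell 32 of ending 1, held 1.45 TPM. It was listed at 0 in all 22 WT cells, which allows a share of up to 13.6% by 3 cells of the total (exact upper limit 15.4%), and no ratio is given against a group at 0.

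Il17a and Il2 were listed at 0 in all 98 columns. Taken as 3 cells of the total, a count of 0 allows a share of up to 4.48% of 67 R9 cells, 9.38% of 32, 8.57% of 35 and 13.6% of 22 WT cells. The exact two-sided 95% interval reaches higher, to 5.36%, 10.9%, 10% and 15.4%. Both cover counting error only. Since zeros in these files can be failed estimates, and Gapdh, though not Actb or B2m, was at under 1 TPM in many cells, these limits bound the listing and not the making of the RNA.

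At least 1 member was seen in 29 of the 67 R9 cells (43.3%, 31.2 to 56.0), and in WT 8 of 22 cells had such a gene (36.4%, 17.2 to 59.3). Cells with 2 members numbered 4 of 67 R9 and 2 of 22 WT, each holding Il22 with Csf2, and 3 or more members were seen in 0 cells. The 4 R9 cells made up 19% of the Il22 cells and 40% of the Csf2 cells. The 2 WT cells made up 33.3% of the Il22 cells and 50% of the Csf2 cells.

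In 4 of these 6 cells at least 1 of the transcripts was under 10 TPM. R9 cell 11 without an ending held 58.5 TPM of Il22 with 349.9 TPM of Csf2. Cells 24, 34 and 41 of ending 1 held 197.1, 5.24 and 6.30 TPM of Il22 with 1.90, 407.0 and 2.07 TPM of Csf2. WT cell 16/32 held 282.9 and 196.7 TPM, and WT cell 2 held 5.16 and 34.5 TPM. At 10 TPM the pair was seen in 1 R9 cell and 1 WT cell, and with all 31 WT columns it was seen in 5 columns at 1 TPM. Both cells with Il17f had Il22 and Csf2 listed at 0.

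**Figure D4:**
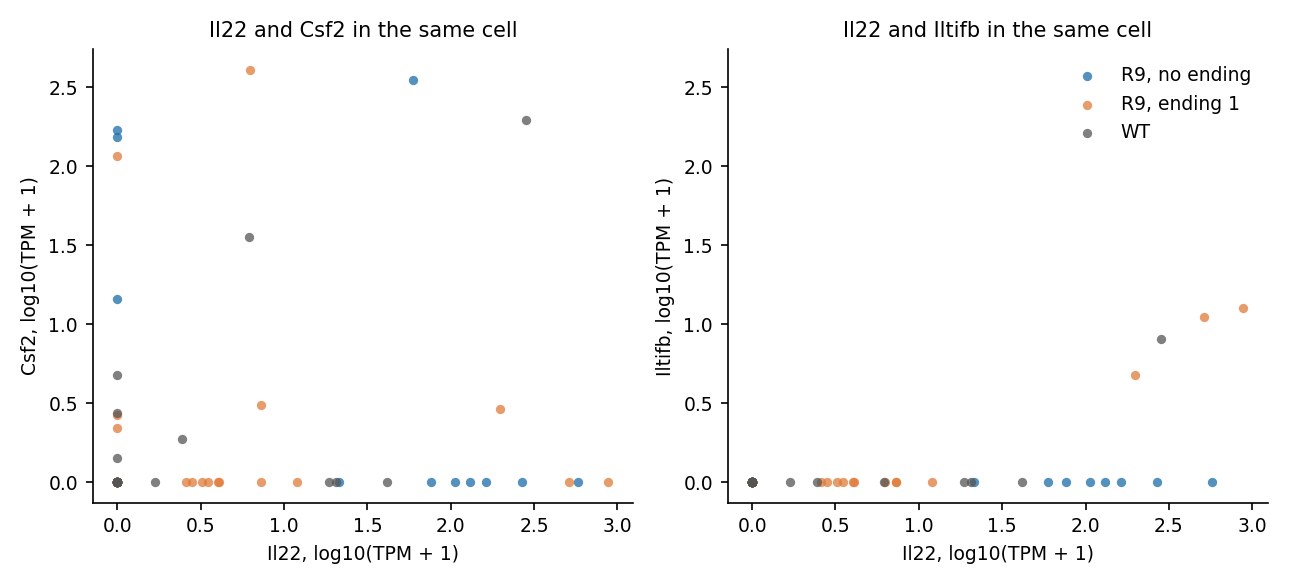
Il22 of each cell (horizontal) against its Csf2 and against its Iltifb (vertical), all as log10(TPM + 1), with colours for the R9 series and WT. At 1 TPM or more, the cells with both Il22 and Csf2 number 4 in R9 and 2 in WT.

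The near copy Iltifb was listed in 5 columns, 3 of R9 ending 1 and 2 of WT, each with Il22 at 197.1 TPM or more. It stood at 1.32% to 3.93% of Il22 there. In 25 columns with Il22 at 1 TPM or more, Iltifb was listed at 0, including 3 with Il22 above 197.1 TPM and up to 576.3 TPM. Summing the 2 genes changed no count of cells with Il22. How shared reads were divided is not given in the sources used here, so the split between Il22 and Iltifb is uncertain.

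Of 24 listed inducers and regulators of Il22, 8 were seen in 50% or more of R9 cells and 8 in 50% or more of WT cells, and the median gene of the list was seen in 28.4% and 31.8% of cells. Of 13512 genes seen in any cell, 10.6% were seen in 50% or more of R9 cells and 10.9% in 50% or more of WT cells. Among the 22 whose mean was 1 TPM or higher in R9 or WT, 13 had a log2 ratio of 1 or more in R9 over WT and 3 of -1 or less, with a median of 1.23, beside 43.0%, 21.3% and 0.62 for all genes used. Il7r, the IL-7 receptor chain (67 of 67 R9, 22 of 22 WT), and the nuclear receptor gene Rora (67 of 67, 20 of 22) were among those seen most. Rora stood at 522.8 TPM on average in R9 and 237.5 TPM in WT, a log2 ratio of 1.13, and Il7r at 935.0 and 831.2 TPM, a log2 ratio of 0.17.

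Lowest of the 21 seen in at least 10% of a set were Ahr, the ligand-activated factor that supports Il22 (8 of 67 and 4 of 22), the kinase gene Jak2 (6 of 67 and 4 of 22) and Nfkbiz (6 of 67 and 1 of 22). Il23r, named after its values were seen, encodes the chain that receives IL-23. It was seen in all 21 R9 cells with Il22 and in all 6 WT cells with Il22, but also in 60 of 67 and 20 of 22 cells overall. Rora was seen in 21 of 21 and 6 of 6 Il22 cells, and Ahr in 2 of 21 and 0 of 6. Between the R9 series, 3 of the 24 were more often seen in ending 1 at 1 TPM with intervals apart (Batf, Tnfrsf25 and Myd88, named after their values were seen), beside 6.85% of all genes. At 10 TPM only Stat3 of this list was apart, less often in ending 1, beside 3.11% of all genes.

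**Figure D5:**
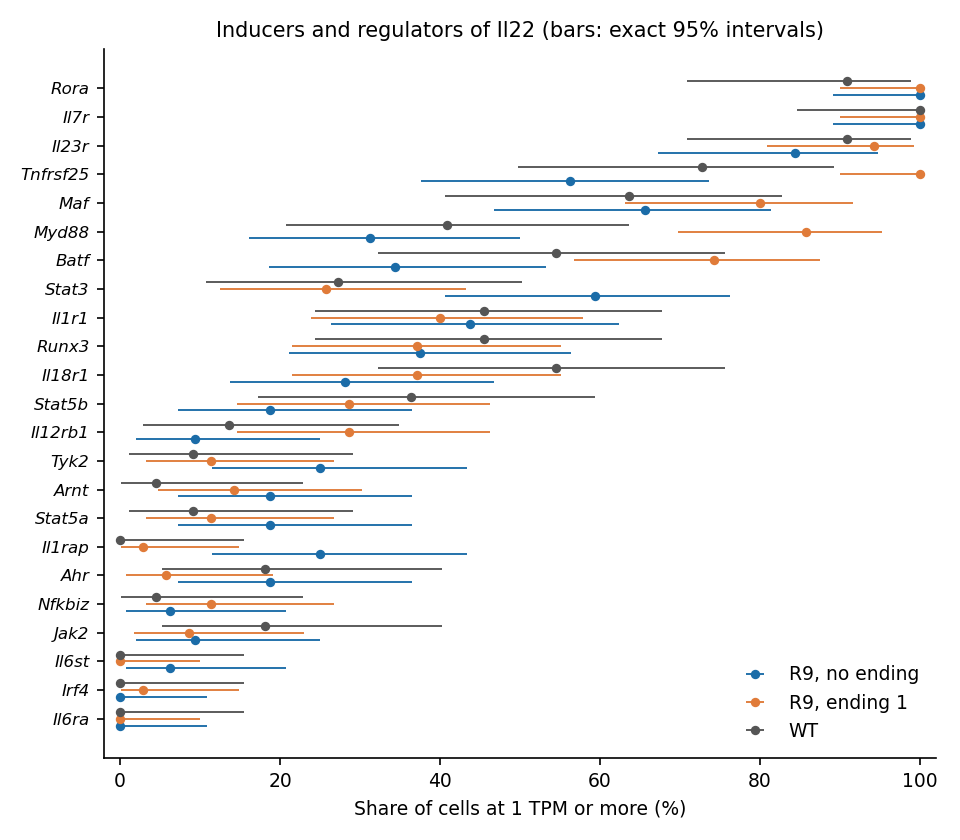
Share of cells in which known inducers and regulators of Il22 were seen at 1 TPM, with exact 95% intervals, in the R9 series and WT. Il7r and Rora lie at the right in all sets, and Batf, Tnfrsf25 and Myd88 lie apart between the R9 series.

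Of 11 receptor genes for the members, 2 were seen in 50% or more of R9 cells and 3 in 50% or more of WT cells. The shares over all genes seen in any cell were 10.6% and 10.9%. Il2rg, the shared chain that also serves IL-7, was seen in every cell, and Il2ra in 39 of 67 R9 and 12 of 22 WT cells. Il10rb, the second chain of the IL-22 receptor, was seen in 12 of 67 and 11 of 22 cells, whereas Il22ra1, the first chain, typical of epithelial cells and named after its values were seen, was seen in 1 of 67 and 1 of 22. The IL-17 receptor chain Il17ra was seen in 14 of 67 and 3 of 22, its partner Il17rc in 5 of 67 and 3 of 22, and the GM-CSF receptor chain Csf2ra in 6 of 67 and 0 of 22. Il2rb, named after its values were seen, was the receptor with intervals apart between the R9 series, in 13 of 32 cells without an ending and 1 of 35 of ending 1. Over all genes, 1.45% were apart in this direction at 1 TPM, and 3.11% at 10 TPM, where Il2rb was also apart. Of 8 receptors used, 2 had a log2 ratio of 1 or more and 2 of -1 or less, with a median of 0.60, beside 43.0%, 21.3% and 0.62 for all genes used.

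Genes whose values followed those of Il22 most closely were sought in each R9 series, by the lower of the 2 Pearson r of log2(TPM + 1), among 3826 genes. They were Cnpy3 (r of 0.49 and 0.41), Rbms1 (0.40 and 0.49), Wdr77 (0.52 and 0.39), Fam50a (0.36 and 0.47), Ndel1 (0.35 and 0.34) and Pim2 (0.34 and 0.35). In WT their r lay between -0.17 and 0.14. These are r over 32 and 35 cells with many zeros, chosen as the highest of many genes, and they describe likeness in these cells only. Pim2, a kinase gene, was seen with Il22 in 8 of 8 cells without an ending and 8 of 13 of ending 1, and in 30 of 32 and 23 of 35 cells overall. Csf2 had r of 0.02, 0.06 and 0.60 with Il22 in the series without an ending, ending 1 and WT (32, 35 and 22 cells), and WT cell 16/32 is the highest WT cell for both genes.

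Markers of other cells were set beside the Il22 cells. Of 6 T cell markers measured, 4 were seen in at least 1 R9 cell and 3 in at least 1 WT cell, and Cd5 and Cd8a in none. The list summed to 0 to 6165 TPM in R9 and 0 to 273.9 TPM in WT. Most of the R9 total was Cd3g, with a mean of 429.8 TPM. Cd3e, Cd3d and Cd4 had means of 2.16, 0.346 and 1.91 TPM in R9. Cd3e and Cd3d, genes of the T cell receptor complex, were seen in 0 of 21 R9 cells with Il22, and in 0 and 1 of 6 WT cells. Cd3g was seen in 14 of 21 and 4 of 6 of them, and in 34 of 67 and 11 of 22 cells overall. The epithelial gene Epcam was seen in 7 of 21 and 3 of 6, and in 17 of 67 and 9 of 22 overall. Mast cell transcripts moved with the R9 series: Tpsb2 was seen in 31 of 32 cells without an ending, 7 of 8 of those with Il22, and in 0 of 35 of ending 1. The 6 mast cell markers summed to a median of 1349.3 TPM without an ending (61.1 to 4659.3, with 6 of 6 seen), 0 in ending 1 (0 to 615.9, 1 of 6) and 0 in WT (0 to 3.91, 1 of 6). Macrophage genes of complement C1q were also seen more in the series without an ending: C1qa, C1qb and C1qc in 10, 13 and 17 of 32 cells, against 1, 0 and 1 of 35 in ending 1, while WT had 1, 6 and 6 of 22. Over 7 measured markers of macrophages and dendritic cells, 6 were seen without an ending, 3 in ending 1 and 5 in WT, and the sums ranged over 0 to 1232 TPM, 0 to 977.9 TPM and 0 to 2963 TPM. The 12 epithelial markers summed to a median of 271.1 TPM (0 to 308306, 10 of 12 seen), 61.2 TPM (0.753 to 13846, 11 of 12) and 5247.5 TPM (14.5 to 99546, 12 of 12). Their part in the Il22 values was not tested. Of 13 ILC3 marker genes, 10 were seen in 50% or more of R9 cells and 11 in 50% or more of WT cells. The shares over all genes seen in any cell were 10.6% and 10.9%. At 10 TPM the list counts were 10 in R9 and 8 in WT, with 10 in the series without an ending and 7 in ending 1. Some of these markers also stand in the lists above.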

How the data were processed

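Per the labels' protocols, cDNA of single ILCs came from the Discover-sc WTA Kit V2 (Vazyme), and the library kit was TruePrep DNA Library Prep Kit V2 (Vazyme). The authors deposited TPM values in 2 tables of 23420 gene symbols, and each column sums to 1e+06. Per the submitters' processing notes, processing used the build mm10 and StringTie 1.3.4, HISAT2 2.1.0, SAMtools 0.1.19 and bcl2fastq. The tables were normalized separately, and depth is unknown.

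The scripts counted genes at 1 TPM or more, with exact Clopper-Pearson 95% intervals, and formed log2 ratios of mean TPM after adding 1 TPM to each mean (this makes the ratio of a low gene too small). WT columns with r above 0.8 were averaged. One WT column name lacks its ending and was mapped to its group only, although the only WT title left for it ends in 1. Il22 and Iltifb coding sequences came from the GENCODE vM21 annotation of GRCm38. The code was tested on simulated data. The software was scipy 1.17.1, pandas 2.3.3, numpy 2.4.6 and matplotlib 3.10.9 under Python 3.11.15. Each cell is 1 sample and each group 1 sample, so no p-value was computed. The members and lists were chosen with earlier results of these data known. Named list genes are the 3 most and 3 least often seen in R9 among those of each list at 10% of cells or more in any set, and the 6 genes most like Il22. Some genes that this rule names are not reported here. Alternatives varied the detection limit, pseudocount, kind of mean, scaling, column joining and cell filters. The sum of Il22 and Iltifb, a cell filter for the series ratio, all alternatives of the series difference and the ratios without single cells, other than without the highest cell of each group, were added after seeing the data.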

Additional observations from a re-analysis of the deposited data

How the results depend on the processing

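Of 203 alternative values of 45 results, 21 moved and 9 reversed, and the other 173 kept their direction and lay within the interval, the spread over cells or list genes, or 1.5 times the count, or, for the series difference, kept their direction. Some of these still changed in size: the median log2 ratio fell from 1.41 to 0 for other cytokines and from 0.60 to 0 for receptors with no filter, and the Il22 series difference from 12.1 to 1.96 points without cells led by 1 gene. The 173 also hold every alternative for Il17a and Il2, and for Il17f in WT, which were at 0 throughout and could not change. At 10 TPM Il22 was seen in 17.9% of R9 and 11.4% of ending 1 cells, and at 100 TPM in 11.9% of R9, 8.57% of ending 1 and 4.55% of WT cells. The difference of ending 1 minus no ending turned to -13.6 percentage points at 10 TPM and -7.05 at 100 TPM for Il22, and to -6.79 and -3.66 for Csf2. Il22 with Csf2 was seen at 10 TPM in 1 R9, 0 ending 1 and 1 WT cell, and in 5 WT columns when all 31 counted as cells. At 10 TPM, 5 inducers and regulators of Il22 were seen in 50% or more of WT cells, 1 receptor in R9 and 1 in WT, and 1 other cytokine in ending 1. The Csf2 ratio of R9 over WT turned to -0.095 with the mean of logs and -0.16 with all 31 WT columns. The Il22 ratio of ending 1 over no ending turned to -0.32 with the mean of logs, -0.24 without the highest cells and -0.58 with each cell scaled by 223 common genes. The cause was not tested. The Il22 ratio of R9 over WT ranged from 0.16 to 3.19 and kept its sign. All of these values counted as kept beside 1.38, because the spread over R9 cells was wide (SD of log2(TPM + 1) of 2.81). WT columns named with the ending 1, which leave out the column without an ending, gave no ratio, since Il22 and Csf2 were listed at 0 there. The column left out likely belongs to ending 1 and held Il22 at 263.3 TPM. Depth is unknown, which limits what a 0 can show. No paired analysis was possible because the result comes from no test, and the labels tie no title number to an animal.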

Other observations

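Of 27 other lymphocyte cytokines with an entry, 22 reached 1 TPM in no R9 cell and 21 in no WT cell, which left 5 and 6 seen. Of all 23420 genes, 12023 were seen in at least 1 R9 cell and 11188 in at least 1 WT cell. The cytokines seen were mainly of the lymphotoxin and TNF family. Ltb, which with Lta forms the lymphotoxin that organises lymphoid tissue, was seen in all 67 R9 and all 22 WT cells, at a mean of 3501 and 2247 TPM (log2 ratio 0.64). Lta was seen in 56 of 67 and 18 of 22 (0.09) and Tnf in 36 of 67 and 9 of 22 (1.41). A single WT cell held 91.1% of the WT sum of Tnf, and without it the ratio was 4.44. The Tnf ratio was 3.93 without the highest cell of each group, and 0.90 without the highest R9 cell alone. At 10 TPM Lta and Tnf were seen more in the R9 series without an ending, with intervals apart, beside 3.11% of all genes. Lta was then seen in 30 of 32 against 6 of 35 cells and Tnf in 20 of 32 against 4 of 35. At 1 TPM the intervals overlapped, with Lta in 30 of 32 against 26 of 35 and Tnf in 20 of 32 against 16 of 35. Tnfsf11, which encodes RANKL, was seen in 21 of 67 and 7 of 22 (4.33). Without the highest cell of each group its ratio was 4.97. At 1 TPM it was seen in 4 of 32 cells without an ending and 17 of 35 of ending 1. The intervals lay apart there, beside 6.85% of all genes. At 10 TPM the counts were 4 of 32 and 9 of 35, and the intervals overlapped. Tgfb1 was seen in 8 of 67 and 1 of 22 (2.91), where 1 R9 cell held 91.0% of the sum and the ratio without it was 0.50.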
